A study of Rattus norvegicus with 6 samples.

Results

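The genes described here are 40 genes of mitosis, chosen by symbol and measured in rat sciatic nerve repaired with a nerve conduit. Of the 40 symbols, 39 matched 1 gene model each among the 21028 gene models measured, and Ccnb2 was not analysed here. RNA sequencing was done on 6 female wild-type rats assigned at random to the groups, taken as 1 library per rat. In the PLLARS_US group (3 rats) the nerve was repaired with a PLLARS conduit and stimulated with ultrasound. In the PCL group (3 rats) it was repaired with a PCL conduit without ultrasound. All 6 rats carried a conduit, the labels do not spell out the conduit materials beyond these names, and the series title calls the tested device piezoelectric and based on Rochelle salt. Conduit material and ultrasound differed together, so their parts in any difference cannot be told apart. The comparison asked how transcript levels in a nerve treated with the stimulated device compared with those under the PCL conduit, and the time between surgery and collection was not given in the sources used here.

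Mitosis is the phase in which a cell condenses its duplicated chromosomes, attaches them to a spindle of microtubules, separates them and divides. The cyclin-dependent kinase Cdk1 with its cyclins starts it, the spindle checkpoint holds it until every chromosome is attached, and the ubiquitin ligase APC/C ends it by marking cyclin B and securin for destruction. Most of these genes are transcribed late in the cell cycle, so their mRNA is scarce in resting tissue. After peripheral nerve injury, Schwann cells, fibroblasts, endothelial cells and macrophages are known to divide in the lesion.

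Levels are in FPKM, sequenced fragments per kilobase of gene model and per 1e6 fragments of the library, so levels can be compared between genes. Depth, in units of 1e6 fragments, was 15.6 to 16.4 in the PLLARS_US libraries and 15.3 to 16.7 in the PCL libraries, as read from the steps between low values of small single-exon models. The Schwann cell marker S100b, which encodes a calcium-binding protein, had 120, 269 and 334 FPKM in PLLARS_US replicates 1 to 3, against 183, 191 and 143 FPKM in PCL replicates 1 to 3, so it was detected in every library. Skeletal muscle RNA varied within both groups. The mean log2(FPKM + 1) over 10 muscle markers was 9.76, 1.29 and 7.66 in PLLARS_US replicates 1 to 3, against 3.25, 6.73 and 9.59 in PCL replicates 1 to 3. The libraries richest in muscle RNA were thus PLLARS_US replicate 1 and PCL replicate 3, 1 in each group, and results that these libraries could carry are given with and without them.

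Mitosis genes were expressed at low levels, and their summed level was lower in the PLLARS_US libraries. Summed over the 39 genes, the level was 101, 118 and 103 FPKM in PLLARS_US replicates 1 to 3, against 179, 150 and 182 FPKM in PCL replicates 1 to 3. The 3 PLLARS_US sums therefore lay below all 3 PCL sums, with means of 108 ± 9.24 FPKM in the PLLARS_US group and 170 ± 17.6 FPKM in the PCL group (SD, n = 3 each). Every value after ± is such an SD over the 3 libraries of a group. In bulk tissue, fewer dividing cells and less of these mRNAs per dividing cell cannot be told apart. The mean over the 6 libraries ran from 1.24 FPKM for Racgap1 to 7.96 FPKM for Cdk1, with a median of 3.23 FPKM, and no gene of the list was at 0 in any library. All 39 genes passed the filter for testing, a mean of at least 1 FPKM over the 6 libraries.

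Each of the 39 genes had a lower mean FPKM in the PLLARS_US group than in the PCL group. The PLLARS_US mean was 42.8% of the PCL mean for Kif2c at one end and 93.6% for Tpx2 at the other, with a median of 59.0% over the genes (quartiles 53.5% and 70.2%). On log2(FPKM + 1), a scale that understates the change of such low genes, the median log2 difference was -0.55 over the 39 genes (quartiles -0.66 and -0.39) and -0.042 over all 13720 genes tested (quartiles -0.22 and 0.13), of which 57.0% had a log2 difference below 0. In 31 of the 39 genes every PLLARS_US library lay below every PCL library, and in 0 every PLLARS_US library lay above. Across all tested genes every PLLARS_US library lay below every PCL library in 10.0% and above in 4.33%.

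Single genes were tested with limma over the whole table. None of the 39 had an adjusted p under 0.05 after Benjamini-Hochberg adjustment over 13720 genes, and neither did any other gene (0.0% called). The smallest adjusted p on the list was 0.402, for Kif20a. At an unadjusted limma p under 0.05, 22 of the 39 were lower and 0 were higher, against 5.01% lower and 1.99% higher over all tested genes. These genes were chosen with earlier results of the same data known, so the counts describe them and are not a test of the list. The count of 22 fell with any 1 library left out, which also leaves fewer libraries for the test. It was 12 without PLLARS_US replicate 3 (against 3.15% of all genes), 10 without PCL replicate 1 (against 4.44%) and 13 without PCL replicate 3 (against 4.89%). It was 16 without PLLARS_US replicate 1 (711 of 13749 genes), 16 without PLLARS_US replicate 2 (521 of 13733) and 17 without PCL replicate 2 (366 of 13679). The part of a single library and that of the smaller test cannot be told apart. The median log2 difference stayed between -0.58 and -0.50 with any 1 library left out. Under quantile normalization, which set the median over all genes to -0.0012, the count was 13 beside 4.1% of all genes lower, and 23 of the 39 genes were without overlap beside 8.21%. Over all genes the unadjusted calls split into 273 higher and 687 lower as deposited, and into 414 and 519 under median-ratio scaling, where 21 of the 39 genes were lower at that level beside 3.78% of all genes. Under that scaling 26 of the 39 were without overlap, beside 7.54% of all genes, since the groups of Plk1, Ube2c, Spc25, Hmmr and Kif23 then overlapped; under quantile normalization those of Mki67, Ncapg and Nusap1 overlapped too. Of the 9 mitosis genes with a mean of at least 5 FPKM, 6 were lower at that level beside 4.77% of all genes at such levels, and 6 were without overlap beside 9.89%.

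**Figure D1:**
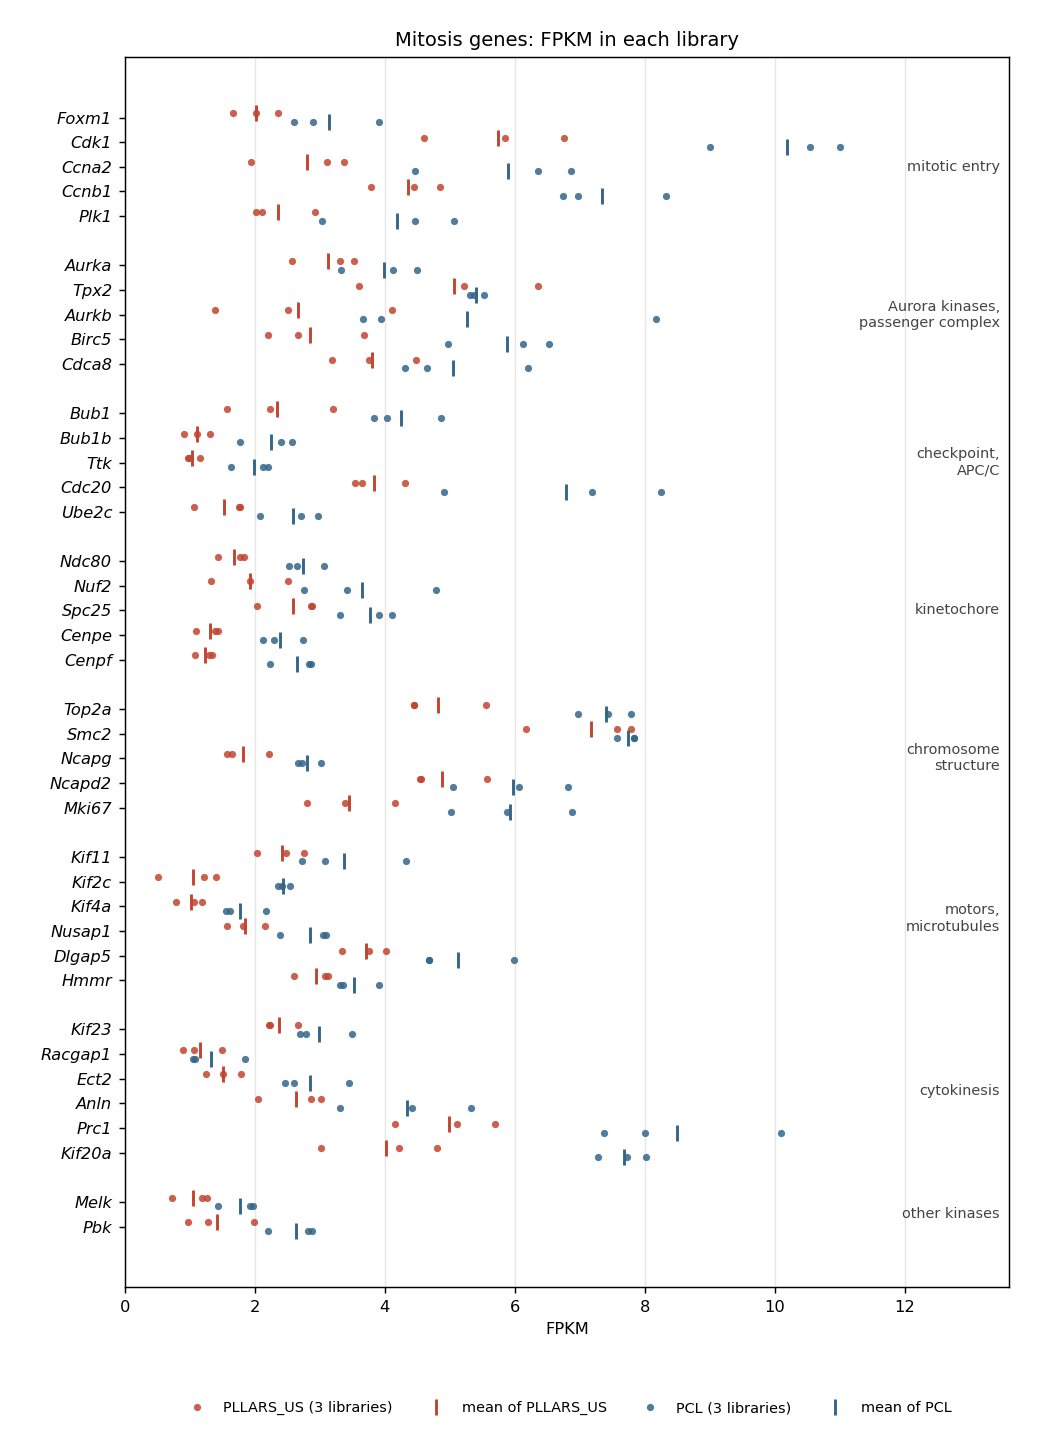
FPKM (x axis) of the 39 mitosis genes (y axis, grouped by role) in the 3 PLLARS_US libraries and the 3 PCL libraries; points are libraries and vertical ticks are group means. In 31 genes all PLLARS_US points lie left of all PCL points, and the largest gap in FPKM is that of Kif20a, with at most 4.81 FPKM in PLLARS_US and at least 7.28 FPKM in PCL.

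**Figure D2:**
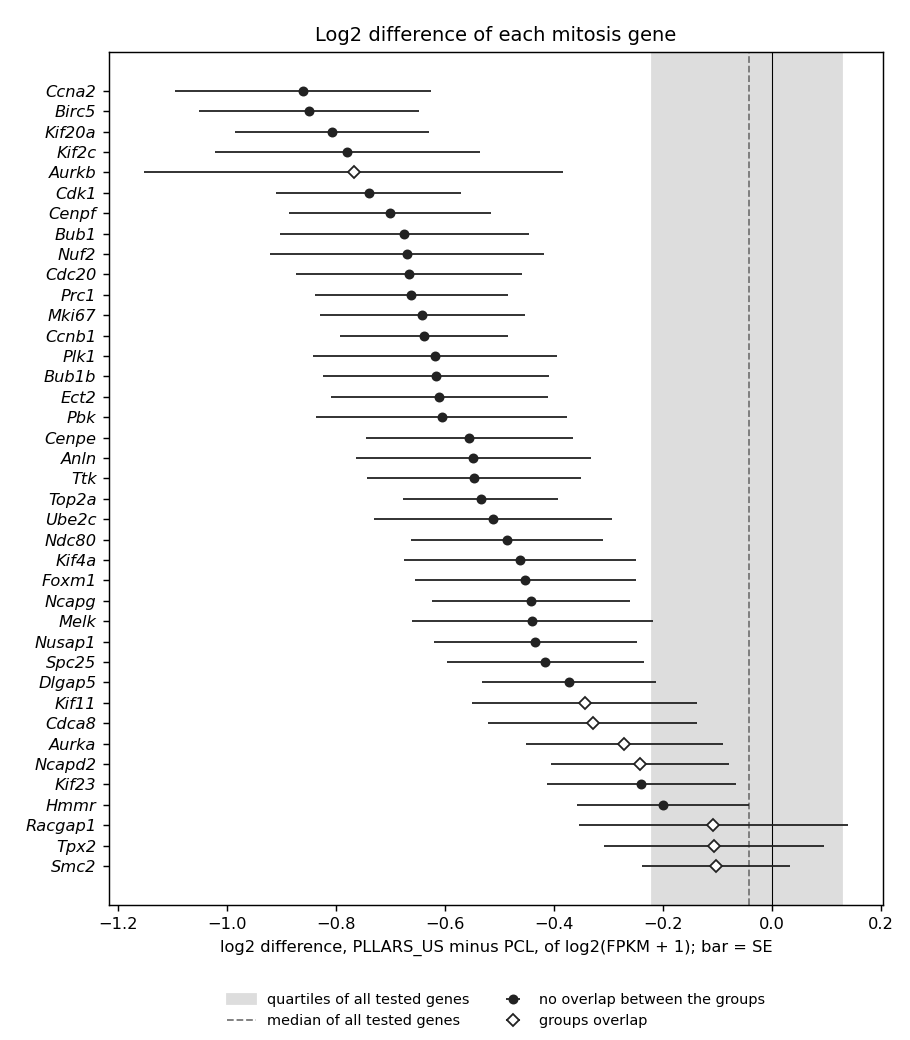
Log2 difference (PLLARS_US minus PCL, x axis) with its limma SE for each of the 39 mitosis genes (y axis), from 3 libraries a group; the grey band and the dashed line give the quartiles, -0.22 and 0.13, and the median, -0.042, of all 13720 tested genes. All points lie below 0, from -0.86 for Ccna2 to -0.10 for Smc2, and open diamonds mark the 8 genes whose groups overlap.

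Promoter sequences of the list are shown because late cell-cycle genes share known promoter elements: the cell-cycle genes homology region (CHR), which binds the MuvB complexes that silence these genes in resting cells and activate them before mitosis, and the CCAAT box, which binds NF-Y. RefSeq windows of 300 bases on the GRCr8 build, 250 before to 50 after each annotated start, were held for 32 of the 39 genes. The CHR was searched as TTTGAA or TTCGAA and the CCAAT box as CCAAT, on both strands; 2 of 29 CHR matches overlapped a CCAAT match. In the sequences below, read 5′ to 3′ on the strand of the gene, capitals mark these letters. The first 4 belong to genes of different roles without overlap between the groups, and Kif2c, whose groups were furthest apart in ratio, has neither element in its window. Cdk1 lies at chr20:19265043-19265342 on the plus strand, Cdc20 at chr5:137255750-137256049 on the minus strand, Cenpf at chr13:103760837-103761136 on the minus strand, Prc1 at chr1:143659231-143659530 on the plus strand and Kif2c at chr5:135899163-135899462 on the minus strand, each window covering the annotated start and the 5′ end of the transcript.
Cdk1: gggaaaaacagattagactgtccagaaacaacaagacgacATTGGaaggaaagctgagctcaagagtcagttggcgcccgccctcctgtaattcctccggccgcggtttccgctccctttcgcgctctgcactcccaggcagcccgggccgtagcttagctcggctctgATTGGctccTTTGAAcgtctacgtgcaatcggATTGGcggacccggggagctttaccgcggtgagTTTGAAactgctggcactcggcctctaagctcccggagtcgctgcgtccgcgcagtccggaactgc
Cdc20: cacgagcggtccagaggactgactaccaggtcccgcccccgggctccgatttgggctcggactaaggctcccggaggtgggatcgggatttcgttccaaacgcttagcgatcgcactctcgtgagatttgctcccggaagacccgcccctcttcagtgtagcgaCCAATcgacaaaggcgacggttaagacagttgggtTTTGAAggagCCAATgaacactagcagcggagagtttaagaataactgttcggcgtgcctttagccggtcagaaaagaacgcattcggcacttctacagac
Cenpf: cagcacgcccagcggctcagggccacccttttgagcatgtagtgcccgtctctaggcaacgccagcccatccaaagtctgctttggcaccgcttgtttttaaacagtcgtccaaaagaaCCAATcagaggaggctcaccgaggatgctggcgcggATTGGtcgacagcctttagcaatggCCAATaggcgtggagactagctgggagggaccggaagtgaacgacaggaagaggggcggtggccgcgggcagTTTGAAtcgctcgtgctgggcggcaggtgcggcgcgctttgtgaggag
Prc1: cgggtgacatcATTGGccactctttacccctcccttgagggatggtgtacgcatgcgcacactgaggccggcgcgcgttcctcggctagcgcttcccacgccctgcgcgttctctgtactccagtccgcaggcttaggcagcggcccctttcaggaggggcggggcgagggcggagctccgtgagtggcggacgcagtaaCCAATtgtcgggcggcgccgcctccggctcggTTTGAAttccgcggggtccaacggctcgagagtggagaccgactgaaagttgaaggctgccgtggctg
Kif2c: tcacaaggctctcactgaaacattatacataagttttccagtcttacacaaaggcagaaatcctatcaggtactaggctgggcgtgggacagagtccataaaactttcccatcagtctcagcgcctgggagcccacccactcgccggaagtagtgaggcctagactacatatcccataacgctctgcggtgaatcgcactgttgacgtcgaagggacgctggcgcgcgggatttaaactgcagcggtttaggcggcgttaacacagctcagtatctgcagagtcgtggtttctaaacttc

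A CHR match was present in 23 of the 32 windows (71.9%), against 18.5% of 18999 protein-coding promoters of the same length and 19.5% of all 27457. A CCAAT match was present in 24 (75%), against 38.4% of protein-coding promoters, and 17 windows held at least 2 (53.1% against 12.4%). Both elements occurred together in 19 windows (59.4%), against 7.64% of protein-coding promoters. In the Cdk1 window CHR letters began 72 and 16 bases before the start, in Cdc20 51 bases before, in Prc1 18 bases before, and in Cenpf at base 3 after it. The median log2 difference was -0.53 for the 19 genes with both elements, with single genes from -0.85 to -0.10, and -0.56 for Aurka, Bub1, Kif2c and Melk, which had neither. It was -0.58 for 4 genes with the CHR alone and -0.56 for 5 with CCAAT alone, among them Ccnb1 and Kif20a. Whether the difference in expression varies with these letters was not tested, and the letters do not show binding.

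**Figure D3:**
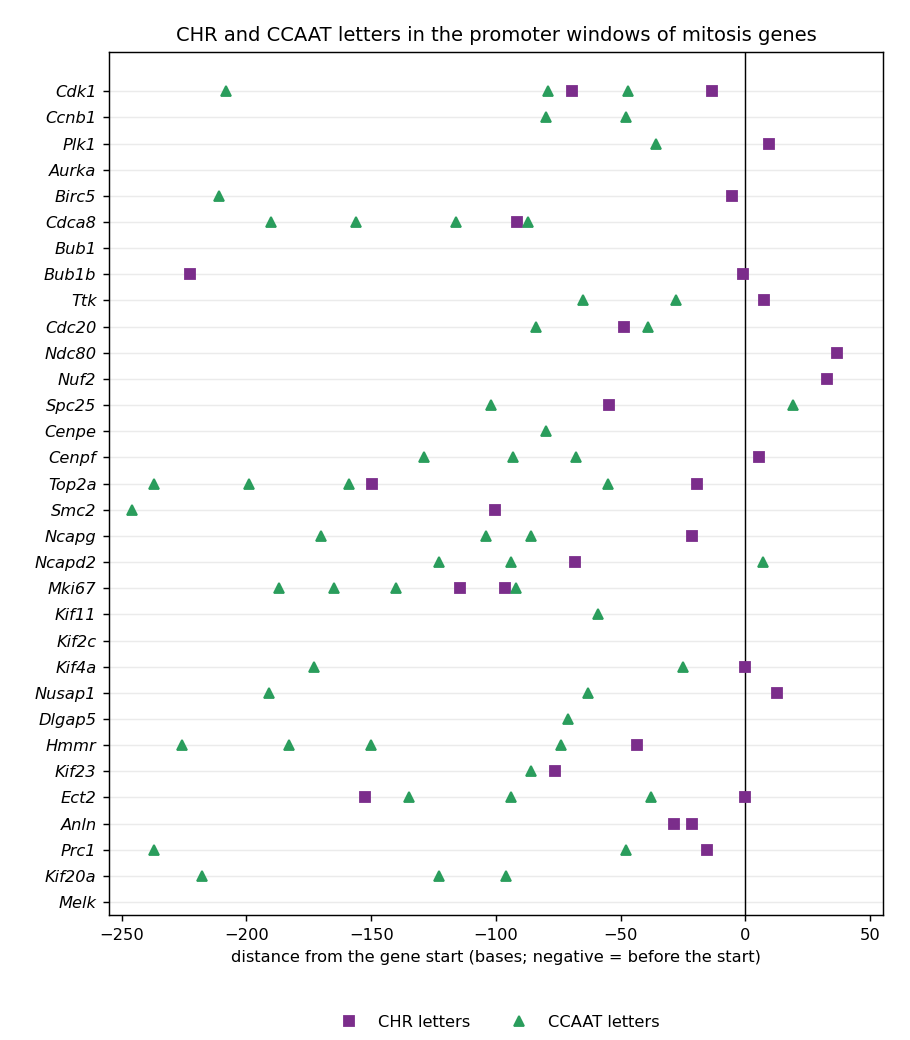
Position of CHR letters (squares) and CCAAT letters (triangles) relative to the annotated start (x axis, bases) in the promoter windows of the 32 mitosis genes with a RefSeq window (y axis, ordered by role). CHR letters occur in 23 windows and CCAAT letters in 24, and the rows of Aurka, Bub1, Kif2c and Melk are empty.

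Of the genes that start mitosis, all 5 measured members were without overlap between the groups and lower in the PLLARS_US libraries as deposited. Over all tested genes this share was 10.0%, and under median-ratio scaling the groups of Plk1 overlapped. Cdk1, the kinase that drives entry into mitosis, whose promoter above holds a pair of CHR matches, had 6.76, 4.6 and 5.85 FPKM in PLLARS_US replicates 1 to 3, against 10.5, 9.0 and 11 FPKM in PCL replicates 1 to 3. Its highest PLLARS_US value was below its lowest PCL value by a factor of 1.33, and the log2 difference was -0.74 (SE 0.17, limma unadjusted p 0.00461, adjusted p 0.445). Ccnb1 encodes cyclin B1, the partner that activates Cdk1 and is destroyed at the end of mitosis. It had 4.45, 4.85 and 3.78 FPKM in the PLLARS_US libraries, in replicate order, and 6.75, 6.97 and 8.32 FPKM in the PCL libraries. Ccna2, the cyclin of S phase and early mitosis, had 1.94, 3.38 and 3.11 FPKM in the PLLARS_US libraries and 6.35, 4.47 and 6.87 FPKM in the PCL libraries. Its log2 difference was -0.86 (SE 0.23, adjusted p 0.528), the largest of the list at a pseudocount of 1. At pseudocounts of 0.5 and 0.1 that of Kif2c was larger, at 0.1 -1.25 against -1.06 for Ccna2. Ccna2 had a PLLARS_US mean at 47.6% of the PCL mean. Plk1, a kinase for spindle poles and for Cdk1 activation, stood at 2.02, 2.93 and 2.12 FPKM with the device and ultrasound and at 4.46, 3.04 and 5.06 FPKM with the PCL conduit. Its groups came within a factor of 1.04 of each other, between PLLARS_US replicate 2 and PCL replicate 2. Foxm1, the transcription factor that activates many genes of this list, had 1.66, 2.02 and 2.36 FPKM in the PLLARS_US libraries and 2.9, 3.91 and 2.61 FPKM in the PCL libraries, a log2 difference of -0.45 (SE 0.20) with a limma unadjusted p of 0.0659. Of these genes, Cdk1, Ccna2, Ccnb1 and Plk1 had an unadjusted limma p under 0.05, against 5.01% of all genes lower at that level.

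Aurora kinases and the chromosomal passenger complex, which corrects wrong attachments of chromosomes to the spindle, differed less evenly: 1 of 5 genes was without overlap (against 10.0% of all tested genes). That gene was Birc5, which encodes survivin, a subunit of the complex. Birc5 had 2.66, 3.68 and 2.2 FPKM in PLLARS_US replicates 1 to 3, against 6.13, 4.97 and 6.52 FPKM in PCL replicates 1 to 3, a log2 difference of -0.85 (SE 0.20, limma adjusted p 0.484). Aurkb, the kinase of the same complex, had 4.11, 2.51 and 1.39 FPKM in the PLLARS_US libraries and 3.94, 3.67 and 8.18 FPKM in the PCL libraries. PCL replicate 3 stood apart there, and PLLARS_US replicate 1 lay above the other PCL libraries, and the log2 difference of -0.77 had the widest SE of the list, 0.38. The Aurkb log2 difference was -0.46 without PCL replicate 3, and -0.73 without both PCL replicate 3 and PLLARS_US replicate 1. Cdca8, the subunit borealin, averaged 3.81 ± 0.652 FPKM in the PLLARS_US group and 5.05 ± 1.01 FPKM in the PCL group (SD, n = 3 each). Aurka, the Aurora kinase of the spindle poles, averaged 3.13 ± 0.503 FPKM in the PLLARS_US group and 3.98 ± 0.595 FPKM in the PCL group. Both ranges overlapped. Tpx2, the microtubule protein that activates Aurora A, had 3.61, 6.36 and 5.21 FPKM in the PLLARS_US libraries and 5.52, 5.32 and 5.38 FPKM in the PCL libraries. The PLLARS_US values lay on both sides of the PCL values, and the sign of its log2 difference of -0.11 (SE 0.20) turned without PLLARS_US replicate 1, to 0.078, and with array weights, which let each library count by its quality, to 0.054.

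All 5 genes of the spindle checkpoint and of the APC/C steps it controls were without overlap as deposited (against 10.0% of all tested genes). Of the 5, 4 were lower at an unadjusted limma p under 0.05 (against 5.01%). Under median-ratio scaling the groups of Ube2c overlapped. Ttk, the kinase that switches the checkpoint on, had 0.976, 0.987 and 1.15 FPKM in PLLARS_US replicates 1 to 3, against 2.12, 1.64 and 2.2 FPKM in PCL replicates 1 to 3. Bub1, a checkpoint kinase at the kinetochore, had 1.58, 3.21 and 2.23 FPKM in the PLLARS_US libraries and 4.87, 3.83 and 4.03 FPKM in the PCL libraries. Bub1b encodes BubR1, which holds Cdc20 inactive while the checkpoint is on. It had 1.11, 1.32 and 0.909 FPKM in the PLLARS_US libraries and 2.4, 1.77 and 2.57 FPKM in the PCL libraries, so its PLLARS_US mean was 49.5% of the PCL mean. Cdc20, the APC/C activator that the checkpoint blocks, had 3.54, 4.32 and 3.65 FPKM in the PLLARS_US libraries and 8.25, 4.91 and 7.19 FPKM in the PCL libraries. The PCL values spread over a wider range than the PLLARS_US values, and the log2 difference was -0.67 (SE 0.21, adjusted p 0.585). Ube2c, the ubiquitin-conjugating enzyme that works with the APC/C, had 1.75, 1.77 and 1.06 FPKM in the PLLARS_US libraries and 2.97, 2.08 and 2.71 FPKM in the PCL libraries, with an unadjusted p of 0.0567. The log2 differences of the 5 genes were alike in size, from -0.67 for Bub1 to -0.51 for Ube2c.

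Kinetochore genes showed the same separation in all 5 members as deposited (against 10.0% of all tested genes). Under median-ratio scaling the groups of Spc25 overlapped. Ndc80, Nuf2 and Spc25 encode subunits of the NDC80 complex, which grips the end of the spindle microtubule. Ndc80 had 1.43, 1.77 and 1.83 FPKM in PLLARS_US replicates 1 to 3, against 2.53, 2.64 and 3.06 FPKM in PCL replicates 1 to 3. Nuf2 had 1.33, 1.93 and 2.5 FPKM in the PLLARS_US libraries and 3.42, 2.76 and 4.79 FPKM in the PCL libraries, and Spc25 had 2.88, 2.86 and 2.04 FPKM in the PLLARS_US libraries and 3.91, 3.31 and 4.11 FPKM in the PCL libraries. The separation was widest for Ndc80, a factor of 1.39 between the nearest libraries, against 1.1 for Nuf2 and 1.15 for Spc25. Cenpe, a kinesin that carries chromosomes to the spindle equator, had 1.39, 1.44 and 1.09 FPKM in the PLLARS_US libraries and 2.75, 2.29 and 2.12 FPKM in the PCL libraries. Cenpf, a large protein loaded on kinetochores before mitosis, had 1.09, 1.34 and 1.29 FPKM in the PLLARS_US libraries and 2.84, 2.24 and 2.87 FPKM in the PCL libraries. Its PLLARS_US libraries were close to each other and its nearest PCL library was higher by a factor of 1.66, with a log2 difference of -0.70 (SE 0.19, limma adjusted p 0.518). Spc25 was the member of this group with an unadjusted limma p above 0.05, at 0.0598. Over all tested genes 5.01% were lower at a p under 0.05.

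Among genes of chromosome structure, Mki67, Top2a and Ncapg were without overlap as deposited and the condensin genes Smc2 and Ncapd2 were not. Over all tested genes 10.0% were without overlap and lower, and under quantile normalization the groups of Mki67 and Ncapg overlapped. Mki67 encodes Ki-67, the widely used marker of dividing cells, which coats mitotic chromosomes. It had 4.16, 3.39 and 2.8 FPKM in PLLARS_US replicates 1 to 3, against 5.89, 5.01 and 6.88 FPKM in PCL replicates 1 to 3, a log2 difference of -0.64 (SE 0.19, limma unadjusted p 0.0137, adjusted p 0.56). Top2a, the topoisomerase that untangles sister chromatids, had 4.45, 5.55 and 4.45 FPKM in the PLLARS_US libraries and 7.44, 6.97 and 7.79 FPKM in the PCL libraries. Condensin is the ring complex that compacts mitotic chromosomes. Its subunit gene Ncapg had 2.23, 1.64 and 1.57 FPKM in the PLLARS_US libraries and 3.02, 2.67 and 2.72 FPKM in the PCL libraries, while Ncapd2 averaged 4.89 ± 0.588 FPKM in the PLLARS_US group and 5.98 ± 0.889 FPKM in the PCL group. Smc2, the core ATPase subunit, had 6.18, 7.57 and 7.78 FPKM in the PLLARS_US libraries and 7.83, 7.57 and 7.84 FPKM in the PCL libraries. Apart from PLLARS_US replicate 1 the Smc2 values of both groups lay together, and its log2 difference of -0.10 (SE 0.14) was among the smallest of the list. Smc4, its partner ATPase from the list of other mitosis genes, had 9.88, 11.2 and 10.4 FPKM in the PLLARS_US libraries and 14.1, 13.5 and 15 FPKM in the PCL libraries, without overlap. The difference between the Smc2 and Smc4 responses was not tested.

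Spindle motors and microtubule proteins were without overlap in 5 of 6 genes as deposited (against 10.0% of all tested genes). Of these, 1 was lower at an unadjusted limma p under 0.05 (against 5.01%). The groups of Hmmr overlapped under median-ratio scaling, and those of Hmmr and Nusap1 under quantile normalization. Kif2c encodes a kinesin that takes microtubules apart at the kinetochore. It had 1.22, 1.41 and 0.507 FPKM in PLLARS_US replicates 1 to 3, against 2.54, 2.36 and 2.42 FPKM in PCL replicates 1 to 3, and this gap between the nearest libraries, a factor of 1.68, was the largest of the list as deposited. The PCL libraries were close together, and PLLARS_US replicate 3 held the lowest value of all 39 genes. Kif4a, a kinesin of chromosome arms, had 0.79, 1.19 and 1.06 FPKM in the PLLARS_US libraries and 2.17, 1.61 and 1.55 FPKM in the PCL libraries. Nusap1, which binds spindle microtubules near chromosomes, had 1.82, 2.16 and 1.57 FPKM in the PLLARS_US libraries and 3.1, 2.39 and 3.05 FPKM in the PCL libraries. Dlgap5, a protein that stabilises the microtubules of kinetochores, had 3.35, 4.02 and 3.76 FPKM in the PLLARS_US libraries and 5.99, 4.69 and 4.68 FPKM in the PCL libraries. The limma unadjusted p values of Kif4a, Nusap1 and Dlgap5 lay between 0.0568 and 0.0712, and that of Kif2c was 0.0179. Hmmr, a hyaluronan receptor that also sits on spindle poles, had 3.13, 3.09 and 2.6 FPKM in the PLLARS_US libraries and 3.92, 3.3 and 3.36 FPKM in the PCL libraries, without overlap but with a log2 difference of -0.20 (SE 0.16). Kif11, the motor that pushes spindle poles apart, averaged 2.42 ± 0.369 FPKM in the PLLARS_US group and 3.38 ± 0.845 FPKM in the PCL group, and its groups overlapped.

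Cytokinesis genes ranged from clear separation to wide overlap, with 5 of 6 genes without overlap as deposited (against 10.0% of all tested genes). Under median-ratio scaling the groups of Kif23 overlapped. Kif20a, a kinesin of the spindle midzone needed for the final cut between daughter cells, had 3.01, 4.81 and 4.22 FPKM in PLLARS_US replicates 1 to 3, against 8.02, 7.28 and 7.73 FPKM in PCL replicates 1 to 3. Its log2 difference was -0.81 (SE 0.18, limma unadjusted p 0.00378), and the nearest libraries differed by a factor of 1.51. Prc1, which bundles the midzone microtubules, had 5.11, 5.7 and 4.15 FPKM in the PLLARS_US libraries and 10.1, 7.37 and 8.0 FPKM in the PCL libraries. Ect2 activates the GTPase that drives the contractile ring, and had 1.51, 1.78 and 1.25 FPKM in the PLLARS_US libraries and 2.61, 2.46 and 3.46 FPKM in the PCL libraries. Anln, the ring scaffold anillin, had 2.05, 2.86 and 3.01 FPKM in the PLLARS_US libraries and 5.32, 4.42 and 3.31 FPKM in the PCL libraries. Kif20a, Prc1, Ect2 and Anln each had an unadjusted limma p under 0.05, against 5.01% of all genes lower at that level. Kif23 and Racgap1 encode the partners of centralspindlin, the complex that recruits Ect2 to the midzone. Kif23 had 2.21, 2.66 and 2.24 FPKM in the PLLARS_US libraries and 3.49, 2.69 and 2.79 FPKM in the PCL libraries, with the nearest libraries a factor of 1.01 apart. Racgap1, the gene of lowest level on the list, had 0.893, 1.49 and 1.06 FPKM in the PLLARS_US libraries and 1.09, 1.05 and 1.85 FPKM in the PCL libraries. The Racgap1 groups overlapped widely, and the sign of its log2 difference of -0.11 (SE 0.25) turned without PCL replicate 3, to 0.047, under quantile normalization, to 0.010, and with array weights, to 0.11.

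The remaining kinase genes, both high in proliferating cells, were without overlap as well (against 10.0% of all tested genes). Melk had 1.18, 1.26 and 0.72 FPKM in PLLARS_US replicates 1 to 3, against 1.97, 1.92 and 1.43 FPKM in PCL replicates 1 to 3. Pbk had 0.968, 1.28 and 1.99 FPKM in the PLLARS_US libraries and 2.82, 2.2 and 2.88 FPKM in the PCL libraries, a log2 difference of -0.61 (SE 0.23, limma unadjusted p 0.0381).

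The order of the libraries within a group was alike for many of the genes. In the PLLARS_US group, replicate 2 held the highest value in 24 of the 39 genes, and replicates 1 and 3 held the lowest in 21 and 16. In the PCL group, replicate 2 held the lowest value in 31 genes, and replicates 3 and 1 held the highest value in 21 and 17. The libraries of the groups with the nearest summed levels were thus PLLARS_US replicate 2 and PCL replicate 2. The highest value of all 6 libraries was a PCL library in 38 of the 39 genes, Tpx2 being the exception.

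Other genes of mitosis, outside the list, mostly had lower values in the PLLARS_US libraries. Of 82 gene models of 81 such genes, 67 passed the filter. Of these, 62 had a log2 difference below 0 (against 57.0% of all genes), and the median was -0.33 (against -0.042). Of the same 67, 29 were without overlap and lower (against 10.0% of all genes) and 0 were without overlap and higher (against 4.33%). At an unadjusted limma p under 0.05, 19 were lower (against 5.01% of all genes) and 0 higher (against 1.99%), and 0 passed after adjustment. Hjurp, the chaperone that loads the centromere histone, had 2.42, 2.73 and 3.0 FPKM in PLLARS_US replicates 1 to 3, against 4.91, 5.76 and 6.41 FPKM in PCL replicates 1 to 3, a log2 difference of -0.85 (SE 0.16, adjusted p 0.309). Troap, a spindle-associated gene, had 0.488, 0.685 and 0.624 FPKM in the PLLARS_US libraries and 2.37, 2.17 and 1.65 FPKM in the PCL libraries. Pttg1 encodes securin, the protein that blocks the separation of chromatids until the APC/C removes it. It had 1.87, 3.02 and 2.08 FPKM in the PLLARS_US libraries and 4.0, 3.97 and 5.11 FPKM in the PCL libraries.

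Genes of the phases before mitosis were looked at as separate lists. Of 46 tested S phase genes, which copy DNA and supply nucleotides, 37 had a log2 difference below 0 (against 57.0% of all genes). Their median was -0.16, against -0.042 over all genes. At an unadjusted limma p under 0.05, 2 were lower (against 5.01% of all genes) and 1 was higher (against 1.99%), and 5 were without overlap and lower (against 10.0%), shares near those of all tested genes. The library means of the list were narrowly without overlap as deposited, at 2.38, 2.54 and 2.47 on log2(FPKM + 1) in PLLARS_US replicates 1 to 3, against 2.67, 2.57 and 2.60 in PCL replicates 1 to 3. The nearest were 2.54 and 2.57, both in replicate 2, and whether the means stay apart under another scaling was not tested. The genes of the list with the smallest p were Pole2, Pold2, Tk1 and Mcm5. Pole2, a subunit of DNA polymerase epsilon, had 0.793, 1.06 and 0.528 FPKM in PLLARS_US replicates 1 to 3, against 2.96, 1.52 and 1.55 FPKM in PCL replicates 1 to 3. Tk1, the thymidine kinase of dividing cells, averaged 5.45 ± 0.453 FPKM in the PLLARS_US group and 7.53 ± 1.25 FPKM in the PCL group, and Mcm5, a subunit of the replicative helicase, 5.34 ± 0.856 and 6.84 ± 0.656 FPKM in these groups. The gene that was higher was Pold2, a subunit of DNA polymerase delta, which averaged 11.9 ± 0.789 FPKM in the PLLARS_US group and 8.35 ± 1.96 FPKM in the PCL group. The groups of Pcna, Mcm6, Mcm2, Tyms and Rrm2, S phase genes with larger p, overlapped. Their PLLARS_US means were 97.3%, 96.3%, 87.5%, 81.0% and 62.9% of the PCL means, in that order. Of 7 tested G1 cyclins and kinases, 5 had a log2 difference below 0 (median -0.11) and 0 had an unadjusted p under 0.05. The G1 kinase gene Cdk2 averaged 5.54 ± 1.13 FPKM in the PLLARS_US group and 7.12 ± 1.27 FPKM in the PCL group, and the cyclin D1 gene Ccnd1 79.3 ± 27.7 and 66.1 ± 7.16 FPKM, above 0 on the log2 scale. Whether mitosis and S phase genes differed in their response was not tested.

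Genes that restrain the cycle, or that act in mitosis but are expressed in resting cells, were looked at in the same way. Of 9 tested CDK inhibitors and pocket proteins, 3 had a log2 difference below 0 (median 0.038), 1 was higher at an unadjusted limma p under 0.05 (against 1.99% of all genes) and 2 were without overlap and higher (against 4.33%). The gene at that level was Cdkn1c, a CDK inhibitor, with 23.8, 40.6 and 33.9 FPKM in PLLARS_US replicates 1 to 3, against 22.7, 20.0 and 11.5 FPKM in PCL replicates 1 to 3. Its nearest libraries were PLLARS_US replicate 1 and PCL replicate 1, and its limma adjusted p was 0.65. Rbl2, a pocket protein of the complex that silences late cell-cycle genes in resting cells, averaged 19.6 ± 2.42 FPKM in the PLLARS_US group and 16.3 ± 0.0776 FPKM in the PCL group, without overlap. Rbl1, a related pocket protein, averaged 3.62 ± 0.814 FPKM in the PLLARS_US group and 4.87 ± 1.07 FPKM in the PCL group, with overlap. Cdkn2a, which encodes another CDK inhibitor, averaged 3.43 ± 0.835 FPKM in the PLLARS_US group and 5.81 ± 2.27 FPKM in the PCL group, with overlap. Of 16 APC/C genes, 8 had a log2 difference below 0 and 8 above (median -0.0039), and 0 had an unadjusted p under 0.05. Among them 1, Anapc13, was without overlap and higher (against 4.33% of all genes), at 35.2 ± 1.53 FPKM in the PLLARS_US group and 27.8 ± 3.88 FPKM in the PCL group. Of 10 DREAM and MuvB genes, 4 lay below 0 and 6 above (median 0.038), with 0 at that level. Of 10 genes of cohesin, the ring that holds sister chromatids together, and of its loaders, 6 lay below 0 (median -0.024). At an unadjusted limma p under 0.05, 1 was lower (against 5.01% of all genes). It was the loader gene Mau2, with 7.9 ± 0.115 FPKM in the PLLARS_US group and 10.8 ± 0.479 FPKM in the PCL group.

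**Figure D4:**
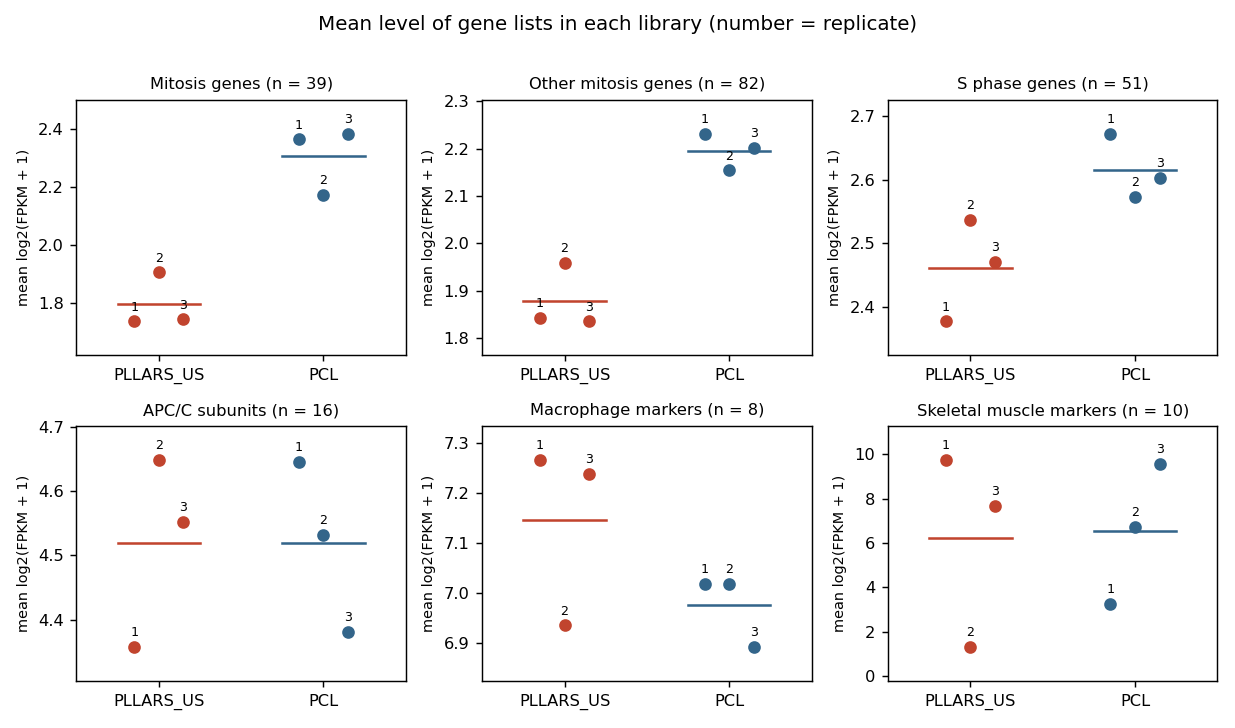
Mean log2(FPKM + 1) over the measured genes of 6 lists (y axis, a separate scale in each panel) in the 3 PLLARS_US and 3 PCL libraries; numbers are replicates and bars are group means. The groups are apart for the 39 mitosis genes, with at most 1.90 in PLLARS_US and at least 2.17 in PCL, and for the other mitosis genes. They are narrowly apart for S phase genes, with at most 2.54 in PLLARS_US and at least 2.57 in PCL. They overlap for APC/C subunits, macrophage markers and skeletal muscle markers.

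Of 12 lists of cell type markers, 0 had library means without overlap between the groups. Of all tested markers in the 12 lists, only Kdr and Adgre1 were without overlap and higher (against 4.33% of all genes). The lists held 7 Schwann cell, 8 macrophage, 6 fibroblast, 5 endothelial, 10 skeletal muscle and 2 myogenic markers tested. They also held 6 T cell, 6 neutrophil, 1 immature granulocyte, 6 red cell, 4 adipocyte and 3 perineurial markers tested. No marker was without overlap and lower (against 10.0%). Kdr, an endothelial receptor, averaged 11.8 ± 1.67 FPKM in the PLLARS_US group and 7.55 ± 2.33 FPKM in the PCL group (limma unadjusted p 0.046, adjusted p 0.702). Adgre1, a surface protein of macrophages, averaged 39.6 ± 3.94 FPKM in the PLLARS_US group and 30.2 ± 5.75 FPKM in the PCL group. Of the 8 macrophage markers 6 had a log2 difference above 0, while Cd68 (-0.47) and Csf1r (-0.33) lay below 0. Over 5 endothelial markers, of which 4 had a log2 difference above 0, the mean log2(FPKM + 1) was 4.20, 4.77 and 4.71 in the PLLARS_US libraries and 4.64, 4.43 and 3.78 in the PCL libraries. Over 7 Schwann cell markers the mean log2(FPKM + 1) was 6.27, 7.24 and 7.59 in PLLARS_US replicates 1 to 3, against 6.69, 7.23 and 6.22 in PCL replicates 1 to 3. Over 8 macrophage markers it was 7.27, 6.93 and 7.24 in the PLLARS_US libraries and 7.02, 7.02 and 6.89 in the PCL libraries, and over 6 fibroblast markers 7.50, 8.10 and 8.20 in the PLLARS_US libraries and 8.23, 8.27 and 7.54 in the PCL libraries. All 6 red cell markers had a log2 difference below 0, with a median of -1.76. Their mean was 9.19, 2.78 and 4.91 in PLLARS_US replicates 1 to 3, against 9.49, 6.20 and 5.91 in PCL replicates 1 to 3, with overlap. PLLARS_US replicate 1, the library with the lowest summed mitosis level, had the highest means of neutrophil and myogenic cell markers and the lowest of fibroblast and adipocyte markers. The part of these cells in the difference of mitosis genes was not tested. Myog, a transcription factor of muscle precursors, had 70.4, 0 and 1.06 FPKM in the PLLARS_US libraries and 0.135, 0.955 and 2.07 FPKM in the PCL libraries. Without both muscle-rich libraries, which leaves 2 libraries in each group, 37 of the 39 mitosis genes had a log2 difference below 0, with a median of -0.47, and 32 were without overlap, beside 29.4% of all genes. In that subset 14 mitosis genes were lower at an unadjusted limma p under 0.05, beside 8.44% of all genes. The subset was not free of muscle RNA: PLLARS_US replicate 3 and PCL replicate 2, with mean muscle marker levels of 7.66 and 6.73, remained. With the muscle level as a covariate and all 6 libraries, the median was -0.55, all 39 genes lay below 0 and 20 were lower at that level, beside 5.58% of all genes.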

How the data were processed

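Gene expression was measured in 6 poly(A) RNA-seq libraries of rat sciatic nerve, grouped by the sample titles. Per the labels' protocols, NEB Next Ultra libraries were sequenced with paired-end reads; strand is not stated. The authors deposited gene levels as FPKM, which their table's name states, in 1 column per library. The submitters' processing notes name HISAT2 2.1.0, StringTie 1.3.3b, FastQC 0.11.5 and DESeq 1.28.0 without roles; the build they name, hg38, is human while the identifiers are rat, so no deposited positions are printed. A second sheet repeats the values of all 21028 gene models. FPKM is relative to the library, so RNA of another tissue lowers all other genes of that library.

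Depth was estimated from 424 small single-exon models of at most 360 bases, whose length-scaled FPKM came out as whole fragments, within 0.03, for all 1047 values under 50 fragments. No counts were analysed here, so no counting intervals are given.

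For the 13720 gene models with a mean of at least 1 FPKM, log2(FPKM + 1) was compared between the groups with limma 3.58.1 (R 4.3.3). The fit used no covariate, a trended prior variance and a Benjamini-Hochberg threshold of 0.05. It was tested on simulated data with larger changes than those of the mitosis genes. Whether it finds changes of their size was not tested. The p-values set the difference between the groups against the spread within them, over these 6 libraries and moderated by the prior variance. An exact permutation test of 3 against 3 libraries cannot go below p = 0.1 and was not used. Motifs were searched in the first RefSeq window listed for each of 27457 genes (GRCr8), also in the last 150 bases of the window. The 40 genes, all lists, tests and alternatives were chosen with earlier results of these data known. All 40 genes are named, with library values for those without overlap, Mki67 and the highest and lowest genes; of each other pathway list up to 4 genes with the smallest p were named. Library values of Tpx2, Aurkb and Smc2 and the values of Ccnd1, Pcna, Mcm6, Mcm2, Tyms, Rrm2 and of marker genes were added after they were seen. The alternatives were other pseudocounts (0.1 and 0.5), other filters (none, or a mean of 5 FPKM), rescaling to a common sum, median-ratio and quantile scaling, no trend, robust moderation, library weights (limma array weights), a replicate block, a muscle covariate and leaving out libraries. The value of 1 marker gene is not reported here.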

Additional observations from a re-analysis of the deposited data

How the results depend on the processing

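Over 19 alternatives the median log2 difference of the mitosis genes tested stayed below 0; it was -0.74 with a pseudocount of 0.1 and -0.43 with array weights, and -0.58 to -0.50 with 1 library left out. The number of genes called over the whole table at an adjusted limma p under 0.05 was 118 with array weights, 4 with the muscle covariate and 0 to 3 with 1 library left out (3 without PLLARS_US replicate 2), and no mitosis gene was among those called in any alternative; their lowest adjusted p was 0.0653, with array weights. Mitosis genes lower at an unadjusted p under 0.05, 22 as reported, numbered 13 under quantile normalization, 14 without both muscle-rich libraries and 10 to 17 with 1 library left out. With a filter of 5 FPKM, which left 9 of the genes, 6 were lower at that level and 6 were without overlap. Of 711 values of single genes under the alternatives, 704 kept their sign and 7 turned. With 1 library left out, the log2 difference ran from -0.22 to 0.047 for Racgap1 and from -0.26 to 0.078 for Tpx2. Racgap1 was 0.010 under quantile normalization, 0.11 with array weights, 0.047 without PCL replicate 3 and 0.13 without both muscle-rich libraries, and Tpx2 was 0.054 with array weights, 0.078 without PLLARS_US replicate 1 and 0.075 without both muscle-rich libraries; the cause was not tested. Same-numbered libraries of the groups had correlations of their deviations of -0.50, 0.15 and -0.32, and differently numbered ones from -0.54 to 0.63. With 3 libraries a group this cannot exclude pairs, and the labels give none, so the numbers were not taken as pairs. With a replicate block 11 mitosis genes were lower at an unadjusted limma p under 0.05 (369 of all genes). In that fit 0 genes were called and 543 had an unadjusted p under 0.05. In the last 150 bases of the window a CHR match was present in 68.8% of the mitosis promoters, a CCAAT match in 68.8% and both in 53.1%. In the same bases of protein-coding promoters these shares were 7.72%, 22.3% and 2.02%. Most of these genes lie at 1 to 5 FPKM, and how far the number of fragments limits their precision was not tested.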

Other observations

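Outside the list, a gene model described in the deposited table as cyclin B2-like (AABR07000658.2) had 2.59, 2.83 and 1.38 FPKM in PLLARS_US replicates 1 to 3, against 5.76, 3.09 and 4.28 FPKM in PCL replicates 1 to 3. Its groups were without overlap and its log2 difference was -0.72 (SE 0.28, limma unadjusted p 0.0424, adjusted p 0.693). It was looked at after its values were seen, and reads of a near-identical copy may have been assigned to it, which was not tested.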
